A study of Mus musculus with 27 samples.

Results

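Macrophages that had been stimulated and then re-stimulated with the same Toll-like receptor (TLR) ligand were compared between 2 ligands, the TLR2 agonist Pam3CSK4 and the TLR3 agonist Poly(I:C). The comparison used the arrays whose labels give a pre-treatment and a re-stimulation with Pam3CSK4 (n = 3) or with Poly(I:C) (n = 3), which makes 6 of the 27 arrays of the series. Bone marrow-derived macrophages (BMDM) of female C57BL/6 mice aged 6 to 8 weeks were grown for 7 days in L929-conditioned medium. They were then given Pam3CSK4 at 100 ng/ml or Poly(I:C) at 10 µg/ml for 24 h, washed, rested for 1 h and given the same ligand at the same dose for 4 h more. Naïve cells (n = 3) and cells given a single stimulation of 4 h, called acute (2 arrays with deposited values for Pam3CSK4 and 3 for Poly(I:C)), served only to describe levels and to compare the ligand difference before and after tolerization. Each value is the deposited log2 intensity of 1 probe on a single-color Agilent array, so a difference of 1 is a 2-fold step, and levels of different probes cannot be set against each other. The study's methods describe replicates as separate mice in one passage and as cultures pooled from 3 mice in another, and the p-values measure the spread between these cultures.

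The 6 arrays had a scanner flag for signal well above background on 43.1 to 47.4% of their spots and correlated at 0.962 to 0.986 within a group and 0.923 to 0.970 between groups. The naïve array of slide 3 stood apart, with this flag on 74.9% of its spots, against 50.2 and 46.7% on naïve slides 1 and 2. Naïve means below include it. All 9 macrophage markers on the list were detected, among them Csf1r (17.78 to 18.30 over the 6 arrays) and Cd68 (15.70 to 17.07), and limma called 0 between the groups (6 had an unadjusted p under 0.05, 3 in each direction, and 0 were called with the slide as a block). Emr1, which encodes the F4/80 antigen, read 17.14, 17.07 and 17.05 after Pam3CSK4 and 14.39, 14.03 and 16.87 after Poly(I:C). The replicate number is also the slide, and the slide 3 arrays stood apart in both groups. The granule gene Ltf, for lactoferrin, was low there and read 8.92, 10.62 and 3.33 on Pam3CSK4 slides 1, 2 and 3 and 10.79, 12.35 and 3.77 on the matching Poly(I:C) slides. The neutrophil marker Ly6g read 8.96, 10.02 and 2.38 after Pam3CSK4 and 12.29, 12.78 and 6.42 after Poly(I:C), and passed the test with the slide as a block (adjusted p = 0.0279) but not without it (adjusted p = 0.452). Of the 8 neutrophil markers 7 were detected, with summed intensities of 3607 to 8468 after Pam3CSK4 and 3073 to 28216 after Poly(I:C), and the part of these cells in the results was not tested. Of the other cell type markers (dendritic, T and NK, B, fibroblast, erythroid, mast cell) Zbtb46 alone was called, and it was not called with the slide as a block. Each group also kept 1 position on every slide, so position and ligand cannot be told apart. In bulk RNA, fewer cells of a type and less RNA per cell cannot be told apart either.

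Pam3CSK4 is a synthetic lipopeptide that TLR2 recognizes together with TLR1 at the cell surface. The receptor signals through the adapter MyD88 to NF-κB and MAP kinases. Poly(I:C) is a synthetic double-stranded RNA that is sensed by TLR3 in endosomes through the adapter TRIF, and in the cytosol by RIG-I and MDA5. These routes activate IRF3 as well as NF-κB and lead to secretion of interferon β, which acts back on the cells through its receptor, JAK kinases and factors that include STAT2 and IRF9. Tolerance is the reduced response of a cell to a ligand it has met before, and it differs from gene to gene.

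The promoters of 6 genes that separated the ligands are shown first, because they hold letters that factors of the interferon, NF-κB and sterol pathways are known to bind. Each sequence is the 250 bases before the transcription start, from RefSeq (GRCm38.p6), written 5′ to 3′ on the strand of the gene. Capitals mark matches, on either strand, to GAAA, any 2 bases and GAAA again, the core of the interferon-stimulated response element (ISRE), in Rsad2, Isg15 and Cxcl10, to GGG, any 2 bases and TTTCC, a κB site, in Cxcl1 and Cxcl3, and to TCAC, any base and CCAC, a sterol response element, in Hmgcs1. In Isg15, 3 ISRE matches overlap in 1 run, and in Cxcl1 there are 2 κB matches. The promoter of Ifnb1 was also searched for the ISRE and κB letters, had no match and is not shown. Cxcl10 was also searched for the κB letters, without a match. Only the letters given here were searched, so a promoter without a match may still hold a site with other letters.
Rsad2 (chr12:26456453-26456702, minus strand): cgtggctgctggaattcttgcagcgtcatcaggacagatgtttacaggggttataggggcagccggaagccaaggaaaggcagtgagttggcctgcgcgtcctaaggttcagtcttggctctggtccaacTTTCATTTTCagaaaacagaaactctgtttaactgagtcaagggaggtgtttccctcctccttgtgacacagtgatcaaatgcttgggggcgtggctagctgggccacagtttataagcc
Isg15 (chr4:156200819-156201068, minus strand): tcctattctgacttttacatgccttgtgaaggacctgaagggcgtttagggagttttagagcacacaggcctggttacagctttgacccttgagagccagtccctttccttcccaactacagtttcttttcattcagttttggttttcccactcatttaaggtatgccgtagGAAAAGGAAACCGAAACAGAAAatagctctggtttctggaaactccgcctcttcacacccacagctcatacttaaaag
Cxcl10 (chr5:92348890-92349139, minus strand): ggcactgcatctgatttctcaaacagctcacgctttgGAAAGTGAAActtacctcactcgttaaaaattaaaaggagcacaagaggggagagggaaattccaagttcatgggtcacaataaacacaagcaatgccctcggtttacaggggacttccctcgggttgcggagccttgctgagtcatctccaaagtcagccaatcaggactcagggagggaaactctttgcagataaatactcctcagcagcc
Cxcl1 (chr5:90890995-90891244, plus strand): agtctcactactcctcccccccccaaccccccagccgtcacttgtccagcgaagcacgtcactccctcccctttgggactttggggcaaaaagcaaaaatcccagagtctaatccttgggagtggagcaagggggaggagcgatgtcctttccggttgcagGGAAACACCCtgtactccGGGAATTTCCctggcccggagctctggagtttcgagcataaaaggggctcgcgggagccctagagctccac
Cxcl3 (chr5:90785851-90786100, plus strand): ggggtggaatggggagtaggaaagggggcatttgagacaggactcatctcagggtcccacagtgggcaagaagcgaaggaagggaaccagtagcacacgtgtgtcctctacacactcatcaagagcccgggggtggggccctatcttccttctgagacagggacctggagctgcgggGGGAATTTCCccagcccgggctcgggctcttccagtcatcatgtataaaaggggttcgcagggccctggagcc
Hmgcs1 (chr13:119690101-119690350, plus strand): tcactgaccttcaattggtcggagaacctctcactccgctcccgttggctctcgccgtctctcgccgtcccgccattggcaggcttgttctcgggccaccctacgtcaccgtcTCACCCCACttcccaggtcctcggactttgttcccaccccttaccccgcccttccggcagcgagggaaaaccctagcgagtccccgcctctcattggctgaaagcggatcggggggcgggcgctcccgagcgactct
The ISRE letters were present in 936 of 27025 mouse promoters of this length (3.46%). They were present in 57 of the 329 genes higher after Poly(I:C) that matched a promoter (17.3%) and in 2 of the 76 higher after Pam3CSK4 (2.63%). Among interferon-stimulated effectors 19 of 34 promoters held them (55.9%). The κB letters were in 1.65% of all promoters. They were in 12 of the 329 genes higher after Poly(I:C) (3.65%) and in 4 of the 76 higher after Pam3CSK4 (5.26%). Among neutrophil-attracting chemokines 3 of the 4 with a promoter sequence held them, Cxcl1, Cxcl2 and Cxcl3. Cxcl1 has them 89 and 71 bases before the start and Cxcl3 73 bases before it. The sterol response element letters were in 1.22% of all promoters and in 1 of 17 cholesterol genes, Hmgcs1. A match describes the letters only.

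In the fit to these 6 arrays more transcripts were called higher after Poly(I:C) than after Pam3CSK4. Of 26011 probes tested, 843 (3.24%) were higher after Poly(I:C) and 226 (0.869%) after Pam3CSK4, at an adjusted p under 0.05 and at least 1.5-fold. With 1 probe for each of 12665 genes, 431 genes (3.4%) were higher after Poly(I:C) and 105 (0.829%) after Pam3CSK4. Of the 431, 273 differed at least 4-fold and 90 at least 16-fold, while of the 105 these numbers were 39 and 5. No Pam3CSK4 array was well above background for 75 of the 431 and for 30 of the 90. A probe with a run of G, a kind of probe described at the end, measured 28 of the 431 and 20 of the 90. The median difference over all genes was -0.06. With the slide as a block the counts were 228 genes (1.8%) and 26 (0.205%), and a fit over all 9 groups called 1814 and 1506 probes. Without slide 3 it was 2495 and 2223 probes, of which 809 and 213 were among those called with all arrays. Leaving out 1 array gave 370 (without Pam3CSK4 slide 1) to 1995 (without Poly(I:C) slide 3) probes higher after Poly(I:C), and 23 to 1722 higher after Pam3CSK4 with the same arrays left out. Groups that did not overlap were commoner, with Poly(I:C) above in 1692 genes (13.4%) and Pam3CSK4 above in 1989 (15.7%).

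**Figure D1:**
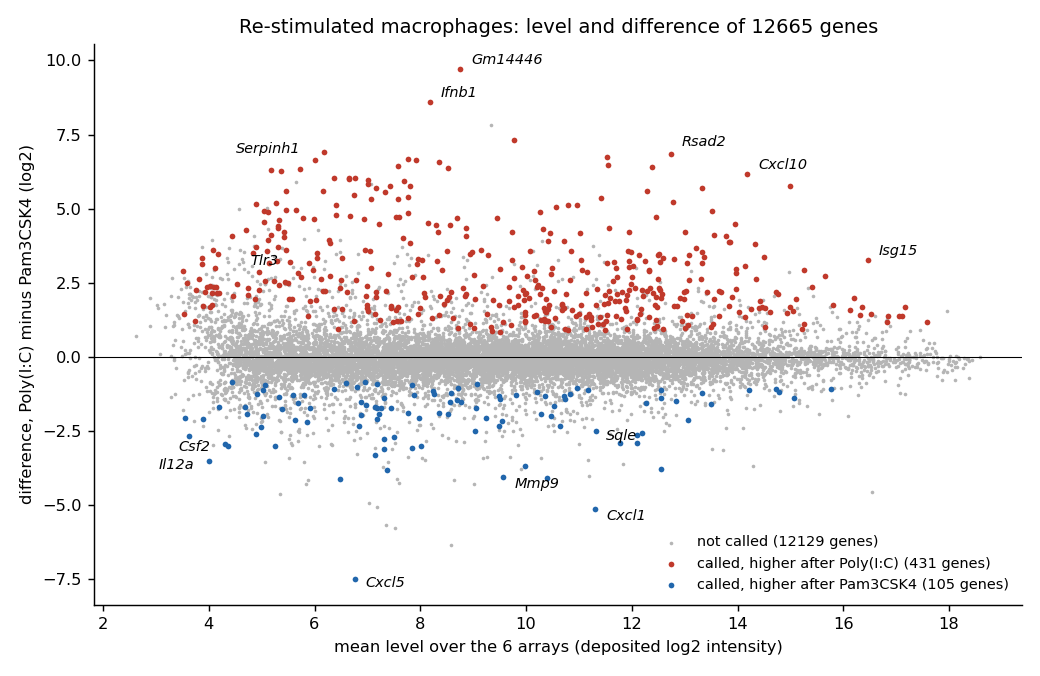
Level and difference of the 12665 genes tested, with the mean deposited log2 intensity over the 6 arrays on the x axis and the log2 difference, Poly(I:C) minus Pam3CSK4, on the y axis. Points are genes; 431 called higher after Poly(I:C) (red) reach a difference of 9.70, and 105 called higher after Pam3CSK4 (blue) reach -7.51 (Cxcl5).

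Ifnb1, which encodes interferon β, was among the genes that differed most. Its probe (chr4:88168023-88168082, mm9) read 3.55, 3.38 and 4.71 on the Pam3CSK4 arrays of slides 1, 2 and 3 and 13.41, 11.31 and 12.69 on the Poly(I:C) arrays. It was above background on 1 of 3 Pam3CSK4 arrays and on all Poly(I:C) arrays, and the groups lay far apart. The difference was 8.59 (SE 0.60, adjusted p = 0.00234). Mean levels were 3.00 in naïve cells, 5.56 after acute Pam3CSK4 and 11.63 after acute Poly(I:C). The mean after re-stimulation with Poly(I:C), 12.47, was thus not below that after acute Poly(I:C).

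Genes that carry the interferon signal were called only in part. The list held 24 tested genes for interferons, their receptors, kinases and transcription factors. Of these, 7 were higher after Poly(I:C) and 0 after Pam3CSK4, against 3.4% and 0.829% of all genes. The median difference was 0.23. Among the 7 were Ifnb1, Stat2, Irf1, Irf7, Irf9 and Irf2, and the products of Stat2 and Irf9 act together at the ISRE. Stat2 read 10.42, 10.56 and 11.38 after Pam3CSK4 and 14.26, 14.47 and 14.02 after Poly(I:C). The ranges were separate on every slide, with a difference of 3.46 (SE 0.30, adjusted p = 0.00349). Irf7, a factor that amplifies interferon production, differed by 3.07 (adjusted p = 0.00975), and Irf1, an early interferon target, by 3.38 (adjusted p = 0.00587). The receptor subunits Ifnar1 (0.10) and Ifnar2 (0.20), the kinases Jak1 (0.16) and Tyk2 (1.33) and the factor Irf3 (-0.02) did not pass the test. With the block, 4 of the 7 stayed called, against 1.8% of all genes called higher after Poly(I:C). Socs1, which dampens cytokine receptor signals, read 11.20, 10.15 and 11.77 after Pam3CSK4 and 10.34, 10.15 and 12.94 after Poly(I:C). Its groups overlapped, at a difference of 0.11 (SE 0.81, adjusted p = 0.955). Without Poly(I:C) slide 3 the sign of this difference turned, to -0.79.

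The antiviral effectors that interferons induce had the largest share of called genes among the lists. Of 44 tested, 41 were higher after Poly(I:C) and 0 after Pam3CSK4, against 3.4% of all genes, and the median difference was 3.24. With the block 33 were called, and without slide 3 it was 41. Rsad2, for the antiviral enzyme viperin, read 8.31, 9.20 and 10.41 after Pam3CSK4 and 15.99, 16.16 and 16.34 after Poly(I:C). Poly(I:C) values were nearly level while Pam3CSK4 values spread more, and the difference was 6.86 (SE 0.51, adjusted p = 0.00241). Naïve cells had a mean of 11.04, so the Pam3CSK4 arrays lay below the naïve mean and the Poly(I:C) arrays above it. On slide 3 the naïve array read 10.47, close to the Pam3CSK4 array. Ifit2, which encodes a protein that binds foreign RNA, read 7.02, 8.16 and 9.34 after Pam3CSK4 and 14.97, 14.97 and 14.78 after Poly(I:C). The difference was 6.74 (SE 0.55, adjusted p = 0.00307), and the naïve mean of 10.84 again lay between the groups. Isg15, a ubiquitin-like modifier, was abundant in both, at 14.62, 14.35 and 15.55 against 18.20, 17.89 and 18.19, and differed by 3.26 (adjusted p = 0.00556). Mx1, a GTPase that restricts viruses, differed by 5.23 (adjusted p = 0.00223), and Usp18, which removes ISG15 and limits interferon signaling, by 3.16 (adjusted p = 0.00151). The group mean after Pam3CSK4 was below the naïve mean for 30 of the 44 genes, and after Poly(I:C) it was above it for 43. The 3 not called were Oas1b (0.39), Trim25 (-0.23) and Slfn5 (-0.92). Members of the Oas1, Ifit and Tgtp families are close in sequence, and their probes may share signal.

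**Figure D2:**
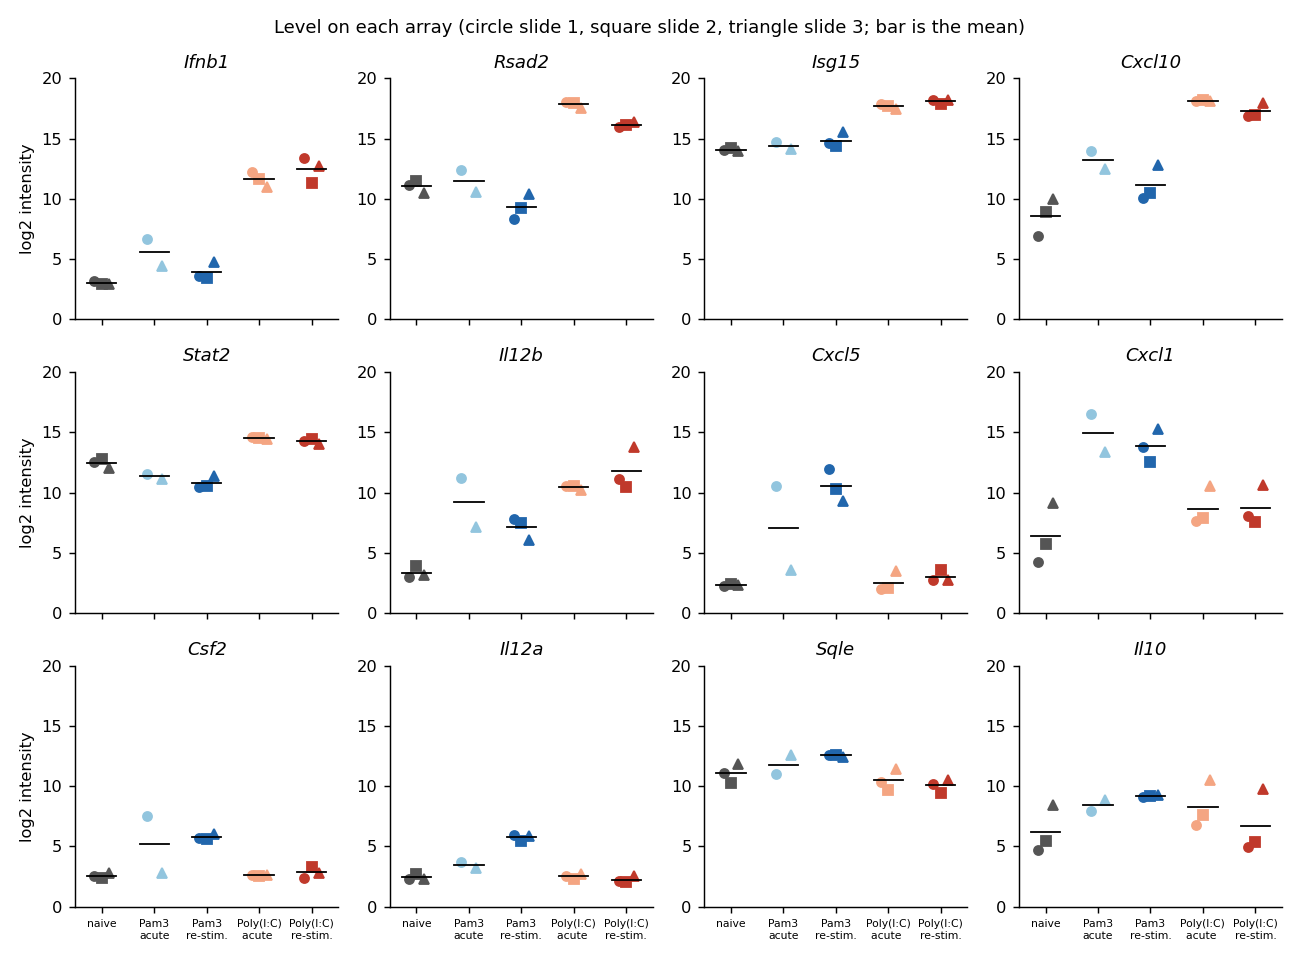
Deposited log2 intensity of 12 genes on each array, in naïve cells, after acute stimulation and after re-stimulation with Pam3CSK4 or Poly(I:C). Symbols give the slide and the bar the mean; Rsad2 is at 8.31 to 10.41 after Pam3CSK4 re-stimulation and 15.99 to 16.34 after Poly(I:C) re-stimulation, while Cxcl5 is at 9.28 to 11.96 and 2.71 to 3.58.

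Further genes with the largest differences belonged to interferon-inducible families outside the list. Gm14446 (Ifit1bl1 in RefSeq), a relative of Ifit1, read 2.60, 4.34 and 4.77 after Pam3CSK4 and 14.65, 14.78 and 11.38 after Poly(I:C). It was above background on 1 of 3 Pam3CSK4 arrays, and its Poly(I:C) value was lowest on slide 3. The difference was 9.70 (SE 1.03, adjusted p = 0.00611), or 7.22 with normexp background correction of the scanner signals. Apol9b, of the apolipoprotein L family, read 5.75, 6.57 and 6.00 against 14.59, 14.63 and 11.09, again with the lowest Poly(I:C) value on slide 3 (7.33, adjusted p = 0.0113). Trim30c was even over the slides (4.23, 3.92 and 5.12 against 11.25, 11.30 and 10.75), with a difference of 6.67 (SE 0.35, adjusted p = 0.00151). The guanylate-binding protein genes Gbp4 and Gbp11, whose products attack membranes around intracellular pathogens, differed by 6.64 (adjusted p = 0.00722) and 6.91 (adjusted p = 0.0147, 0.0639 with the block). Gbp11 was not well above background on any Pam3CSK4 array and was at least 113-fold higher after Poly(I:C). Here and below such a bound sets the brighter group's mean against the higher of the dim probe's own signal and the lowest signal well above background on each dim array. The bound holds for the deposited values, and with normexp correction, which adds an offset to every signal, the difference of Gbp11 was 3.72 in place of 6.91. Without Poly(I:C) slide 2 it was 6.16. Gm4951, an interferon-inducible GTPase gene, differed by 6.58 (adjusted p = 0.00349).

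Most sensors of nucleic acids were called higher after Poly(I:C). Of 15 tested, 13 were called, against 3.4% of all genes, and the median difference was 2.21. With the block 10 were called and without slide 3 it was 14. Ifih1, for the double-stranded RNA sensor MDA5, read 10.96, 11.18 and 11.41 after Pam3CSK4 and 13.53, 13.71 and 14.17 after Poly(I:C). Within each group the arrays lay close together, and the difference was 2.62 (SE 0.24, adjusted p = 0.00388). Ddx58, for RIG-I, differed by 2.63 (adjusted p = 0.00349), Ifi204, for a DNA-binding protein, by 2.93 (adjusted p = 0.00151), and E330016A19Rik, which is Cgas, by 2.33 (adjusted p = 0.00824). Mnda (Ifi211 in RefSeq), of the same family as Ifi204, had the largest difference of the list, 4.48 (SE 0.46, adjusted p = 0.00572). The adapters of these sensors did not pass the test. Mavs, downstream of RIG-I and MDA5, differed by 0.08 and Tmem173, for STING, by 1.02 (adjusted p = 0.226).

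Of 22 TLR and adapter genes 1 was called, against 3.4% of all genes higher after Poly(I:C), and it was the gene for the receptor of Poly(I:C) itself. Tlr3 read 3.55, 4.04 and 4.19 after Pam3CSK4, below background on all 3 arrays, and 7.48, 6.97 and 6.97 after Poly(I:C). It was at least 9.25-fold higher after Poly(I:C) in the deposited values (difference 3.21, SE 0.25, adjusted p = 0.00291), and the difference was 1.34 with normexp. Its naïve mean was 4.55 and its acute Poly(I:C) mean 8.34. Tlr2 was at 14.16 to 14.51 after Pam3CSK4 and 14.91 to 15.30 after Poly(I:C), without overlap but short of the threshold (0.70, adjusted p = 0.112). Tlr1, the partner of TLR2, read 12.76, 13.28 and 13.13 against 10.98, 10.81 and 12.78 (-1.54, adjusted p = 0.163). Irak3, an inhibitor of TLR signaling, read 13.57, 13.70 and 13.05 against 10.999, 11.27 and 12.86 (-1.73, adjusted p = 0.119). For both genes the Poly(I:C) array of slide 3 was the one closest to Pam3CSK4. Myd88 (-0.19), Ticam1 for TRIF (-0.12), Cd14 (-0.13) and Traf6 (0.09) gave differences smaller than their standard errors.

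Chemokines fell into groups that separated in opposite directions. Of 22 chemokines and receptors outside the neutrophil-attracting group, 5 were higher after Poly(I:C) (3 with the block, 12 without slide 3) and 0 after Pam3CSK4 (1 with the block, 2 without slide 3). Of all genes 3.4% and 0.829% were called, and 1.8% and 0.205% with the block. Without slide 3, 2495 and 2223 of the 26011 probes were called. Cxcl10, which attracts activated T cells, read 10.04, 10.44 and 12.83 after Pam3CSK4 and 16.86, 16.96 and 17.996 after Poly(I:C). Slide 3 was highest in both groups, and the difference was 6.17 (SE 0.75, adjusted p = 0.00916). Cxcl9, another ligand of the same receptor, read 5.72, 6.14 and 7.20 against 11.91, 11.43 and 9.80, and differed by 4.70 (SE 0.63, adjusted p = 0.0123, 0.0758 with the block). The monocyte chemokines Ccl8 (3.91, adjusted p = 0.0212) and Ccl12 (3.90, adjusted p = 0.008) and the chemokine-binding receptor gene Ccrl2 (3.57, adjusted p = 0.00593) were the other 3. Ccl5 was higher on every Poly(I:C) array but at the top of the scale there, at 18.82, 18.82 and 18.55 (adjusted p = 0.056).

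Of the 5 chemokines tested that recruit neutrophils, 3 were called higher after Pam3CSK4, against 0.829% of all genes. All 5 had groups that did not overlap, with Pam3CSK4 above, against 15.7% of all genes. Without slide 3 it was 4, of which 2 were among the 3. Leaving out Pam3CSK4 slide 1, Pam3CSK4 slide 2 or Poly(I:C) slide 1 left 1 called. Cxcl5 (chr5:91190490-91190549, mm9) read 11.96, 10.32 and 9.28 after Pam3CSK4 and 2.74, 3.58 and 2.71 after Poly(I:C). No Poly(I:C) array was well above background, and in the deposited values the level was at least 182-fold higher after Pam3CSK4 (difference -7.51, SE 0.67, adjusted p = 0.00368). The difference was -4.43 with normexp and -6.79 without Pam3CSK4 slide 1. The naïve mean was 2.33 and the acute Poly(I:C) mean 2.52. Cxcl1 read 13.81, 12.50 and 15.31 against 8.02, 7.54 and 10.66. Slide 3 was the highest in both groups, so the difference of -5.13 (SE 1.00, adjusted p = 0.0453) was clearer with the block (adjusted p = 0.0174). Cxcl3 read 15.12, 13.47 and 14.74 against 10.43, 11.99 and 9.52 (-3.79, SE 0.70, adjusted p = 0.0386), and was not called with the block (adjusted p = 0.116). Cxcl2 (-3.61, adjusted p = 0.0608) passed only with the block (adjusted p = 0.0235). Ppbp (-4.64, adjusted p = 0.0534) missed the threshold in both fits. Cxcl1, Cxcl2 and Cxcl3 are closely related in sequence, and their probes may share signal.

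Cytokine genes went both ways. Of 25 tested, 7 were higher after Poly(I:C) and 2 after Pam3CSK4, against 3.4% and 0.829% of all genes. The counts were 3 and 3 with the block, against 1.8% and 0.205%, and 9 and 9 without slide 3. Tnfsf10, for the death ligand TRAIL, was below background on all Pam3CSK4 arrays (2.02, 3.98 and 4.02) and read 8.71, 8.73 and 10.71 after Poly(I:C), at least 57.7-fold higher in the deposited values (difference 6.04, SE 0.75, adjusted p = 0.00942). The difference was 3.27 with normexp. Il15, which sustains NK and memory T cells, read 5.98, 6.02 and 6.25 against 10.77, 10.75 and 10.03 (4.44, SE 0.25, adjusted p = 0.00163). The naïve mean of Il15 was 8.06, between the groups. Il18bp, Csf1, Il1rn and Il18 were the other genes higher after Poly(I:C), apart from the IL-12 subunit described next.

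The subunits of IL-12 separated the ligands in opposite directions. Il12b, for the p40 chain shared with IL-23, read 7.77, 7.50 and 6.06 after Pam3CSK4 and 11.16, 10.45 and 13.81 after Poly(I:C). The difference was 4.69 (SE 0.92, adjusted p = 0.0453), and it was not called with the block (adjusted p = 0.124). Il12a, for the p35 chain, read 5.98, 5.44 and 5.89 against 2.13, 2.03 and 2.57. It was not well above background on any Poly(I:C) array, and was at least 10.0-fold higher after Pam3CSK4 in the deposited values (difference -3.53, SE 0.24, adjusted p = 0.00234). The difference was -1.004 with normexp. Il12a was at a mean of 2.44 in naïve cells and 3.45 after acute Pam3CSK4, with no array of either group well above background. Il23a, for the chain that pairs with p40 in IL-23, was not above background on enough arrays to be tested. Csf2, for the growth factor GM-CSF, was likewise below background after Poly(I:C) and at least 7.10-fold higher after Pam3CSK4 (5.68, 5.63 and 6.04 against 2.41, 3.30 and 2.83, adjusted p = 0.00406). Il1b, for interleukin-1β, read 16.14, 14.84 and 14.89 against 11.05, 11.91 and 13.50 without overlap, short of the threshold (-3.13, adjusted p = 0.0578).

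For Il6 and Il10 the result depended on slide 3. Il10, for the anti-inflammatory interleukin-10, read 9.07, 9.18 and 9.26 after Pam3CSK4 and 4.94, 5.36 and 9.79 after Poly(I:C). Slides 1 and 2 gave a large difference and slide 3 a small one of the opposite sign, and over all arrays it was -2.47 (SE 1.23, adjusted p = 0.285). Without slide 3 in both groups it was -3.98 (adjusted p = 0.0034). Il6 read 13.01, 11.89 and 13.20 against 10.19, 10.66 and 14.09, a difference of -1.05 (adjusted p = 0.574). Without slide 3 this was -2.02 (adjusted p = 0.0465). Tnf, for tumor necrosis factor, read 13.97, 13.99 and 15.49 against 13.17, 12.63 and 15.56 (-0.70, adjusted p = 0.647), and was not called. It was highest on slide 3 in both groups.

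**Figure D3:**
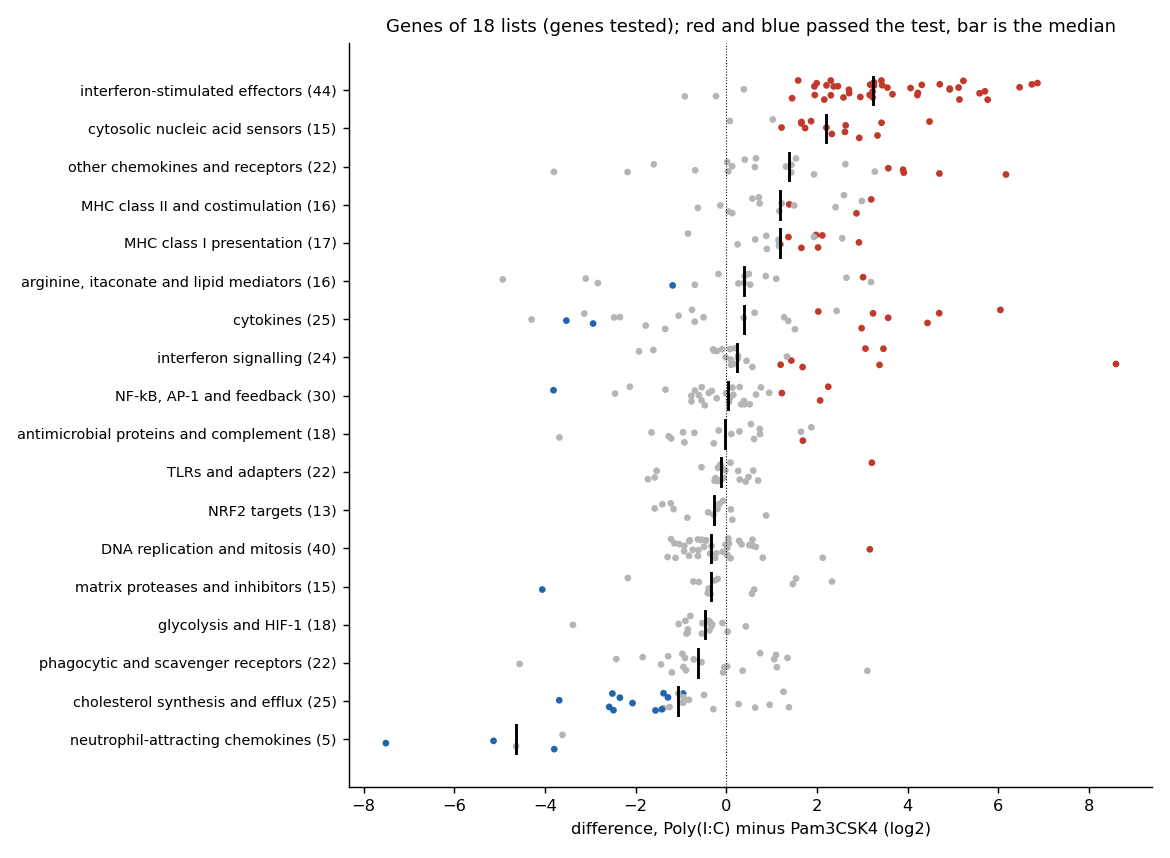
Log2 difference, Poly(I:C) minus Pam3CSK4, of the tested genes of 18 lists, with the number tested in brackets. Points are genes, red or blue where called, and the bar is the list's median, from 3.24 for interferon-stimulated effectors to -4.64 for neutrophil-attracting chemokines.

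Of 25 cholesterol genes tested, 11 were called higher after Pam3CSK4, against 0.829% of all genes, and 0 after Poly(I:C), and the median difference was -1.06. With the block 1 was called, against 0.205% of all genes, and without slide 3 it was 15, with 2 in the other direction. Leaving out Pam3CSK4 slide 1 or 2 or Poly(I:C) slide 1 or 2 each left 1. Sqle, for squalene epoxidase, read 12.58, 12.64 and 12.46 after Pam3CSK4 and 10.23, 9.47 and 10.51 after Poly(I:C). The Pam3CSK4 arrays were nearly equal, and the difference was -2.49 (SE 0.29, adjusted p = 0.00822, 0.0430 with the block). Fdps (-2.58), Stard4 (-2.51), Idi1 (-2.35), Cyp51 (-2.07), Hmgcs1 (-1.56), Sc5d (-1.42), Sc4mol (-1.38) and Fdft1 (-1.29), all of cholesterol synthesis or transport, were also called. The efflux transporters Abca1 (-0.29) and Abcg1 (1.38) and the regulator Srebf2 (0.64) did not pass the test. Scd2, a fatty acid desaturase outside the list, read 11.98, 13.45 and 11.90 against 7.08, 8.32 and 9.71 (-4.07, adjusted p = 0.0347, 0.0775 with the block). Ch25h, whose product makes 25-hydroxycholesterol, was higher after Poly(I:C), at 13.82, 12.41 and 14.16 against 9.89, 10.08 and 11.37 (3.02, SE 0.58, adjusted p = 0.0423).

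Of 17 MHC class I genes, 7 were called higher after Poly(I:C) (0 with the block, 14 without slide 3), against 3.4% of all genes. All Poly(I:C) arrays lay above all Pam3CSK4 arrays for 16 of them, against 13.4% of all genes. The median difference was 1.51 on slide 1, 1.55 on slide 2 and 0.73 on slide 3. Tap1, for the peptide transporter, read 9.25, 9.66 and 9.87 against 13.01, 12.96 and 11.58 (2.92, SE 0.42, adjusted p = 0.0167, 0.0710 with the block). Psmb9, an immunoproteasome subunit, differed by 2.02 (adjusted p = 0.0243) and H2-K1, a class I heavy chain, by 1.19 (adjusted p = 0.025). For MHC class II and costimulation, 3 of 16 were called (0 with the block, 10 without slide 3), against 3.4% of all genes called higher after Poly(I:C). Cd40, a costimulatory receptor, read 9.40, 9.73 and 11.07 against 13.75, 13.22 and 12.81 (3.20, SE 0.48, adjusted p = 0.0185, 0.0843 with the block). The class II chain H2-Eb1 read 10.26, 10.54 and 10.97 against 14.84, 14.71 and 11.18. Its slide 1 and 2 differences were large and that of slide 3 near 0, and it was not called (2.99, adjusted p = 0.144).

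NF-κB and AP-1 genes went both ways. Of 30 tested, 3 were higher after Poly(I:C) and 1 after Pam3CSK4, against 3.4% and 0.829% of all genes, and the median difference was 0.03. The groups did not overlap for 10 and 8 of them, against 13.4% and 15.7% of all genes. With the block 0 were called in either direction, and without slide 3 there were 6 and 6. Nfkb1, for the p50 subunit, read 10.51, 10.67 and 10.74 against 10.70, 10.25 and 11.36, with overlap (0.13, SE 0.30, adjusted p = 0.824). Bcl3, which binds p50, also overlapped, at 13.66, 14.19 and 14.35 against 14.01, 14.01 and 13.53 (-0.21, adjusted p = 0.654). The inhibitor gene Nfkbie (2.25, adjusted p = 0.0222, 0.0781 with the block), Egr1 (2.07, adjusted p = 0.00929) and the phosphatase gene Dusp1 (1.22, adjusted p = 0.0275) were higher after Poly(I:C). Myc, a growth regulator, read 9.23, 9.40 and 9.19 after Pam3CSK4 and 4.61, 4.59 and 7.19 after Poly(I:C) (-3.81, SE 0.70, adjusted p = 0.037, 0.0825 with the block). The naïve mean of Myc was 8.28, over arrays at 7.69, 7.65 and 9.51.

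Several further genes higher after Pam3CSK4 belonged to no common group. Mmp9, a secreted gelatinase, read 12.11, 10.94 and 11.75 against 6.98, 6.68 and 8.98 (-4.06, SE 0.65, adjusted p = 0.0231), the 1 called gene of 15 for matrix proteases and inhibitors. Serinc2, of a family of membrane proteins, read 8.25, 7.73 and 9.67 against 3.67, 4.71 and 4.87 (-4.14, adjusted p = 0.0133). Lad1, an epithelial filament protein, read 8.76, 8.46 and 9.16 against 5.48, 4.92 and 6.05 (-3.31, SE 0.34, adjusted p = 0.00556), from a naïve mean of 2.84. Alox5ap, needed for leukotriene synthesis, was the 1 called member higher after Pam3CSK4 among 16 genes of arginine, itaconate and lipid mediators (-1.18, adjusted p = 0.0267, 0.0859 with the block). Arg1, for arginase 1, read 12.19, 8.72 and 7.56 against 3.56, 3.69 and 6.43 without overlap and was not called (-4.93, adjusted p = 0.0973). Nos2, for inducible nitric oxide synthase, lay the other way, at 10.07, 9.01 and 10.55 against 13.58, 14.02 and 11.59 (3.19, adjusted p = 0.063).

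Other lists gave few or no calls. Of 18 glycolysis and HIF-1 genes, 13 NRF2 targets and 22 phagocytic and scavenger receptors, limma called 0, with or without the block. At an unadjusted p under 0.05 there were 5, 3 and 5 of them higher after Pam3CSK4 and 0, 0 and 4 higher after Poly(I:C). Egln3, an oxygen-sensing hydroxylase gene (-3.38, adjusted p = 0.0521), came closest to the threshold. Without slide 3, 4 and 8 of the 22 receptors were called in the Poly(I:C) and Pam3CSK4 directions. The scavenger receptor gene Marco was at 18.82 on all 3 Pam3CSK4 arrays, the top of the scale, and at 12.18, 12.22 and 18.39 after Poly(I:C) (-4.56, adjusted p = 0.17 with all arrays). Of 18 antimicrobial and complement genes, C3 was called (1.69, adjusted p = 0.0445, 0.0847 with the block). Of 40 DNA replication and mitosis genes, Ccne1, for cyclin E1, was called (10.08, 9.99 and 9.76 against 13.66, 13.83 and 11.83, difference 3.16, adjusted p = 0.0275, 0.0528 with the block). The group means of these 40 were below the naïve mean for 38 genes after Pam3CSK4 and for 36 after Poly(I:C).

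The ligand difference after re-stimulation was set against that after a single stimulation. Of the 431 genes higher after Poly(I:C), 411 (95.4%) also had a higher mean after acute Poly(I:C) than after acute Pam3CSK4, against 40.9% of all genes. Of the 105 higher after Pam3CSK4, 83 (79.0%) had the higher acute mean with Pam3CSK4, against 59.1% of all genes. These shares are descriptions and were not tested. The test of a change in the ligand difference between acute and re-stimulated cells, over 11 arrays, called 0 of 27725 probes (0%). Adjusted p values began at 0.0618, while the unadjusted p was under 0.05 for 2753 probes. With all 9 groups in 1 fit 39 were called, 17 upward and 22 downward, and leaving out Poly(I:C) re-stimulated slide 3 gave 337. Socs1 had an acute mean of 9.65 with Pam3CSK4 and 14.46 with Poly(I:C), whereas the re-stimulated groups overlapped (change in the difference -4.70, adjusted p = 0.294). The change was 2.52 for Ifnb1 (adjusted p = 0.474), -2.59 for Il12a (adjusted p = 0.0993) and -3.28 for Cxcl9 (adjusted p = 0.599). No gene is shown by this test to have a ligand difference that changed between acute and tolerized cells. A gene that changed alike with both ligands would not be seen by it. The 2 acute Pam3CSK4 arrays lay far apart for some genes, such as Cxcl5 (10.57 and 3.59) and Cxcl3 (15.75 and 10.70).

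**Figure D4:**
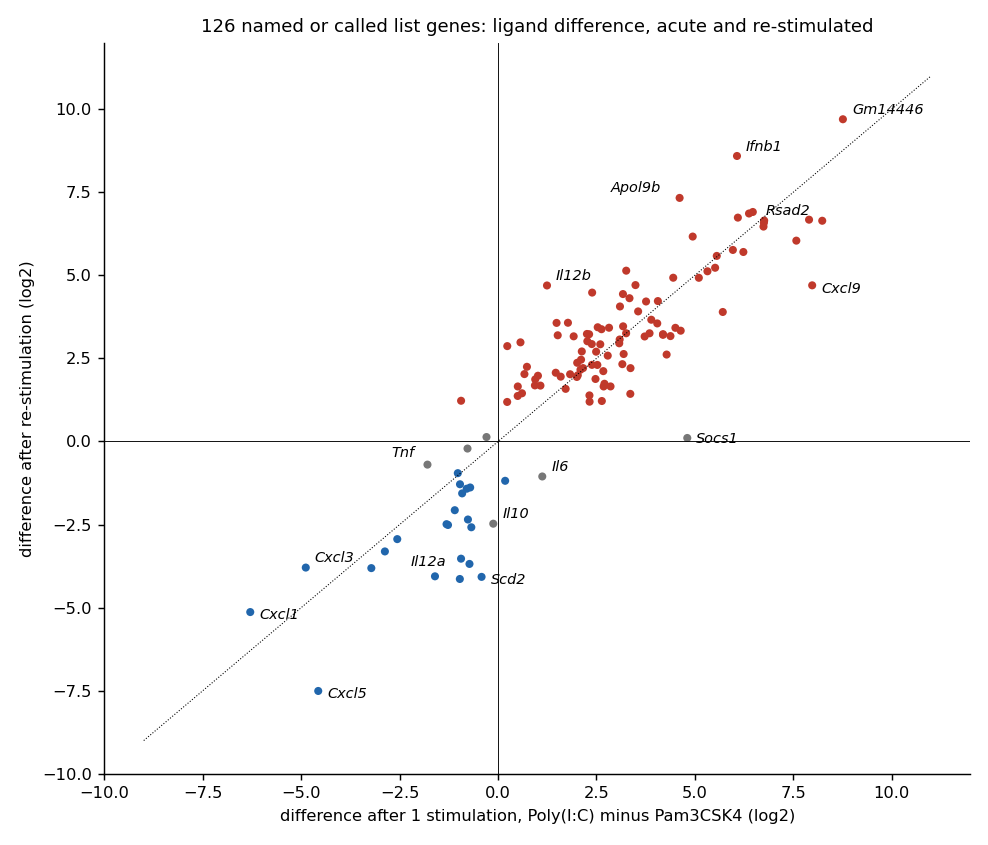
Log2 difference, Poly(I:C) minus Pam3CSK4, after 1 stimulation (x axis, 3 and 2 arrays) and after re-stimulation (y axis, 3 and 3 arrays) for 126 genes, those named and the list genes called. Red and blue are genes called after re-stimulation, gray those not called, and the dotted line marks equal differences; Socs1 lies far to the right of it, at a difference of 0.11 after re-stimulation.

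Serpinh1, for a collagen chaperone, had one of the largest Poly(I:C) differences outside the interferon genes. It was not well above background on any Pam3CSK4 array (2.51, 3.18 and 2.38) and read 10.66, 8.41 and 8.94 after Poly(I:C), at least 89.1-fold higher in the deposited values (difference 6.65, SE 0.59, adjusted p = 0.00363). The difference was 3.39 with normexp. Its 60-base probe begins with a run of G. Other probes called higher after Poly(I:C) had the same kind of run. Shown are 30 bases of some of these probes, which are designed array oligonucleotides, with the run in capitals (GGGG, any base and GGGG, or 6 G in a row) and positions counted from the probe's 5′ end. The first 5 were called and the last 3, with the run toward the other end, were not.
Serpinh1 (bases 1 to 30): GGGGAGGGGaaatatgagcctttgttgctt
Hspbap1 (bases 11 to 40): aaaaaGGGGAGGGGgctatatatagttttt
Ptprg (bases 1 to 30): gGGGGAGGGGttttataacctgaaattttt
Lrrc30 (bases 1 to 30): ctggtggaGGGGGGactggagatgctctac
Tubb3 (bases 11 to 40): atattcGGGGGGaggggtatacttaataaa
Arfip2 (bases 31 to 60): gactgggaccaaaGGGGTGGGGataatggg
Ccdc88c (bases 31 to 60): ctgtggtggtggtGGGGGGaagggtgaaaa
C7 (bases 31 to 60): actctttcctgtgtGGGGGGtatgtcctta
Such a run was found in 312 of the 55681 probes of the array. Of the 237 that were tested, 58 (24.5%) were called higher after Poly(I:C) and 0 after Pam3CSK4, against 770 (3.02%) and 225 (0.882%) of the 25520 probes with no such run of G or C. A probe that passed the filter through the Poly(I:C) arrays alone had to differ. The share called was lowest where the run lay toward the 3′ end. It was 28 of 68 probes where the run began at base 1 to 10, 15 of 46 at 11 to 20, 9 of 27 at 21 to 30, 5 of 34 at 31 to 40 and 1 of 62 at 41 to 55.

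The called probes shown above with a run of G also shared the order of the re-stimulated Poly(I:C) arrays. Hspbap1 read 2.91, 2.26 and 2.53 after Pam3CSK4 and 10.02, 8.03 and 8.64 after Poly(I:C), and Ptprg 4.47, 3.98 and 3.81 against 11.37, 8.90 and 9.50. In each the Poly(I:C) array of slide 1 was the highest and that of slide 2 the lowest, as for Serpinh1. The order was not particular to these probes. Called probes without a run of G had it too, such as those of Gpr124 (11.67, 9.27 and 10.00) and Celf3 (11.31, 9.05 and 9.61). The called probe of Gabrp, with a run of G, did not (9.87, 7.61 and 7.49). The median of the 58 on any of the 6 Poly(I:C) arrays, acute and re-stimulated, was at least 8.08, and on any of the 19 other arrays of the series at most 5.35. For the re-stimulated arrays of the 2 ligands this split was set by the choice of called probes. Over all 237 tested probes with the run, group medians were 9.23 for acute and 8.75 for re-stimulated Poly(I:C). In the other groups they were 5.99 to 6.62. Of the 39 named genes and the list members, Serpinh1 alone has such a probe, and leaving out probes with a run of G or C changes the probe counts from 843 and 226 to 770 and 225. This set of probes was chosen after the values were seen. Whether these probes read the RNA of the genes they are named for was not tested.

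**Figure D5:**
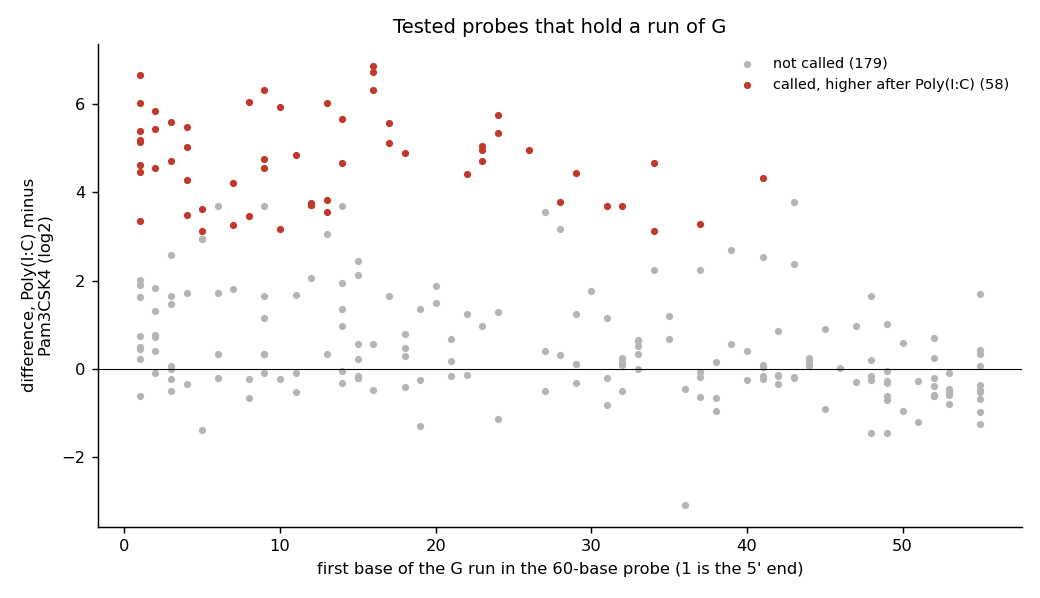
Tested probes that hold a run of G, with the position of the run's first base in the 60-base probe on the x axis (1 is the 5′ end) and the log2 difference, Poly(I:C) minus Pam3CSK4, on the y axis. Red points (58) were called higher after Poly(I:C) and gray (179) were not; 1 of the 62 probes whose run begins at base 41 or later is red.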

How the data were processed

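RNA of BMDM was hybridized with Cy3 to single-color Agilent 60-base probe arrays. The authors corrected the background of the scanner signals with RMA, quantile normalized the arrays with limma and deposited log2 values, 1 for each of 55681 probes. These log2 values were used as deposited for the main comparison, and the deposited Feature Extraction intensity values and flags served for the detection filter and the alternatives. Quantile normalization forces every array to the same distribution, so a shift of all transcripts in a group could not be seen. Arrays were grouped by the treatment in the labels.

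Probes entered the test when the flag for signal over background was set on 2 or more arrays of 1 of the groups (26011 probes, 17143 with a gene symbol). limma 3.58.1 in R 4.3.3 was fitted to the 3 against 3 arrays with lmFit and eBayes, two-sided, with Benjamini-Hochberg adjustment over all probes tested. Calls needed an adjusted p below 0.05 together with 1.5-fold or more. Each gene was represented by its tested probe of highest mean over the 6 arrays; of 3614 genes with more than 1 probe, 0 had probes called in opposite directions. Symbols are those of the array design; 16378 tested probes matched a RefSeq transcript and 1739 of those have another symbol there. Summed marker levels are sums of linear values over a list.

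Arrays of the same replicate number lay on the same slide. Their deviations from the group means correlated at 0.130, 0.178 and 0.129 over genes, against -0.133 to -0.003 for different numbers, so the numbers were taken as pairs in a further fit. The main fit, with its counts, standard errors and adjusted p values, did not use the pairs. The fit with the slide as a block is given beside it where it changes a call. The change of the ligand difference was tested over 11 arrays and 27725 probes.

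Genes named with full values were the 10 with the largest called difference in each direction, the called gene with the largest difference of each list in each direction and 12 genes the study discusses; 1 of the 40, Il23a, was not tested, and some items are not reported here. Members and gene lists were chosen with earlier results of these data known. The procedure was tested on simulated data with fixed seeds. Alternatives were values remade from the scanner signals, median scaling, normexp, the 75th percentile, other detection filters, no fold threshold, the block, 1 fit over all 9 groups and leaving out arrays.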

Additional observations from a re-analysis of the deposited data

How the results depend on the processing

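Probe counts, 843 higher after Poly(I:C) and 226 higher after Pam3CSK4, depended on the fit. The slide as a block gave 474 and 45, of which 437 and 30 were among the main calls. One fit over all 9 groups gave 1814 and 1506. Normexp background correction gave 380 higher after Pam3CSK4, no detection filter 84, detection on all 3 arrays 347, and median scaling with the block 56. Leaving out both arrays of slide 3, chosen after seeing the data, gave 2495 and 2223, and leaving out 1 array gave 370 to 1995 and 23 to 1722. The share of calls higher after Poly(I:C), 78.9%, was 54.6% with all 9 groups, 52.9% without slide 3, 91.3% with the block and 93.8% with median scaling and the block; median scaling moved the median of all probes from -0.08 to 0.12. The test of a changed ligand difference gave 39 probes with all 9 groups and 0 to 337 with arrays left out. The cause of these differences was not tested.

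Of 33 named genes that were called, 15 stayed called under all 16 alternatives and 0 turned direction. The other 18 (among them Apol9b, Gbp11, Cxcl9, Il12b, Cd40, Ccne1, Ch25h, Tap1, Nfkbie, C3, Alox5ap, Cxcl3, Myc, Mmp9, Scd2, Serinc2 and Cxcl1) lost the call with at least 1 array left out, 18 of them without Pam3CSK4 slide 1 and 0 without Poly(I:C) slide 3. Their highest adjusted p in limma lay between 0.0598 (Serinc2) and 0.171 (C3). The block ended 13 of these calls and changed no other. Direction turned for genes that were not called: Socs1 was at -0.34 without Pam3CSK4 slide 2, -0.79 without Poly(I:C) slide 3 and -0.43 without slide 3 of both (0.60 at the other end, without Poly(I:C) slide 2); Nfkb1 was at -0.16 and -0.11 in the last 2 of these (0.39 without Poly(I:C) slide 2), and Bcl3 at 0.087 in the last. With 3 arrays a group, small differences cannot be shown, and probes near background give lower bounds.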

Other observations

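Outside the gene lists and the 39 named genes tested, 60 genes differed at least 16-fold among those called, and all 60 were higher after Poly(I:C). Named genes on no list also reached this size, in both directions, such as Gm14446 (9.70) and, higher after Pam3CSK4, Serinc2 (-4.14) and Scd2 (-4.07). Of these 60, 38 were well above background on at most 1 Pam3CSK4 array, and 19 were measured by a probe with a run of G. Members of the Schlafen family, which act on growth and viral replication, were among them. Slfn1 read 3.55, 4.84 and 4.64 after Pam3CSK4 and 11.55, 11.10 and 9.75 after Poly(I:C), with no Pam3CSK4 array well above background, and was at least 87.6-fold higher in the deposited values (adjusted p = 0.00349). Slfn4 differed by 6.38 (adjusted p = 0.00679, 0.0514 with the block). The GTPase gene Tgtp2 read 8.41, 8.87 and 10.24 against 15.85, 15.43 and 15.44 (6.40, adjusted p = 0.00241). Inhbb, for a subunit of activin B, read 2.17, 1.94 and 1.96 against 9.77, 9.92 and 5.27, with slide 3 the lowest Poly(I:C) array. No Pam3CSK4 array was well above background, and the level was at least 58.2-fold higher in the deposited values (adjusted p = 0.0427, 0.0785 with the block). These genes were named after their values were seen, and members of the Schlafen and Tgtp families are close in sequence.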
